A study of Homo sapiens with 15 samples.

Results

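The cytosolic ribosomal protein genes encode the proteins of the large (60S) and small (40S) ribosomal subunits. They were taken here as the protein-coding genes of GENCODE 29 whose symbols start with RPL or RPS and a digit, with RPLP0, RPLP1, RPLP2 and RPSA. The RPS6K kinases and paralogues whose symbols end in L or L1 were left out. The rule found 83 genes among the 58395 of the count table: 46 of the 60S subunit, 33 of the 40S subunit, 3 read-through genes and RPS19BP1, which carries the prefix but encodes a protein that binds RPS19 rather than a subunit. The low-count filter was passed by 78 of them, namely all 46 of the 60S subunit, 31 of the 40S subunit and RPS19BP1.

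The cells were H1299, an established human non-small cell lung cancer line from a lymph node metastasis. After growth in complete medium they spent 12 h in serum-free RPMI 1640 that held 5 mM glucose with 4 mM NH4Cl, 5 mM glucose with 4 mM glutamine (called both), 4 mM glutamine alone, 5 mM glucose alone, or neither nutrient. Each medium had 3 libraries, all media lacked serum, and the labels name no genetic change or other agent for any group. The labels name no culture day or batch, so the spread that the p-values measure is that between libraries and may be technical.

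Ribosomal proteins are made in near-equal numbers, since each ribosome holds a single copy of almost all of them, and their messenger RNAs are among the most abundant in growing cells. In mammals these messengers typically begin with a C followed by an unbroken run of pyrimidines, the 5′ terminal oligopyrimidine (TOP) tract. Through this tract their translation, and the stability of the messengers, depend on mTORC1 and the RNA-binding protein LARP1, which respond to amino acids and other nutrients. Poly(A) RNA-seq reads messenger levels and not their translation.

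The start regions of 8 members on which the results below turn, and of the 3 P stalk genes named RPLP, were read from the RefSeq promoter table (build GRCh38.p14). Each line gives the 30 bases from 10 before to 20 from the annotated start, 5′ to 3′ on the gene's own strand, and capitals mark the longest run of C and T in that window. The first 4 genes had the highest interaction values, and RPL10A, RPL12 and RPL10 the largest falls when glucose was added to glutamine. RPS12 had the highest level per exon length. Which start the H1299 cells used was not measured.
RPS26, chr12:56041908-56041937 (+): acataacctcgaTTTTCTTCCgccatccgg
RPL38, chr17:74203668-74203697 (+): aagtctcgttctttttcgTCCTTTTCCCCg
RPS15, chr19:1438386-1438415 (+): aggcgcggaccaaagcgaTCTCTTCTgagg
RPL27, chr17:42998409-42998438 (+): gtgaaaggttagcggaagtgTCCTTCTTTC
RPL10A, chr6:35468391-35468420 (+): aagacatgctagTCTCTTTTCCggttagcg
RPL12, chr9:127451387-127451416 (-): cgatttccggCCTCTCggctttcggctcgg
RPL10, chrX:154398055-154398084 (+): ccaCTCTCagaaatatacgtctgtcacagt
RPS12, chr6:132814559-132814588 (+): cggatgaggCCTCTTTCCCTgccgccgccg
RPLP0, chr12:120201092-120201121 (-): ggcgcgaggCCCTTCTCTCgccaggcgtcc
RPLP1, chr15:69452808-69452837 (+): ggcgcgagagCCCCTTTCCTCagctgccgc
RPLP2, chr11:809957-809986 (+): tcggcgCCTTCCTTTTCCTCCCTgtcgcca

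The promoter table held 66 of the 83 members by symbol, 64 of them subunit genes. A C at the annotated start followed by at least 4 further pyrimidines was found in 43 of the 64 (67.2%), against 1060 of 27239 other promoters (3.89%). A run of at least 8 pyrimidines anywhere in the 30-base window was found in 50 members (78.1%) and in 12.4% of other promoters, and the median longest run was 11 bases in members and 4 in other promoters. Only the gene's own strand was searched. In the windows above, RPLP1, RPLP2, RPS12, RPLP0, RPL38 and RPL12 had the tract at the annotated start, whereas RPS26, RPL10A, RPS15 and RPL27 had their longest run some bases downstream of it and RPL10 upstream of it.

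The 15 libraries held between 14914127 and 19938691 counts. Levels below are CPM with TMM-scaled library sizes, and TMM factors were 0.793 on average in neither and between 1.006 and 1.086 in the other media. The neither libraries stood apart: their 10 most counted genes took 12.3 to 12.4% of all counts, against 5.83 to 5.87% with glucose plus NH4Cl, 5.69 to 5.73% with both, 7.07 to 7.09% with glutamine and 5.54 to 5.62% with glucose. Of the markers listed for the line, VIM averaged 1835 to 2646 CPM over the media, KRT18 291 to 665 and KRT8 159 to 563. Summed fibroblast, endothelial, leukocyte and erythroid markers reached at most 2.59, 1.28, 0.694 and 0.214 CPM in any library.

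Ribosomal protein genes took the largest share of the messenger pool in cells given neither nutrient and the smallest in cells given both. The members' summed counts were 7.09 ± 0.136% of each library with glucose plus NH4Cl, 6.42 ± 0.0525% with both, 7.5 ± 0.0735% with glutamine, 6.63 ± 0.0426% with glucose and 8.19 ± 0.104% with neither (SD, n = 3 each). The 3 libraries of each medium stayed apart from those of every medium they were compared with. The share with glucose added to glutamine was 0.857 times that with glutamine, and with NH4Cl added to glucose it was 1.07 times that with glucose. Glutamine against glucose gave a ratio of 1.13 and NH4Cl in place of glutamine 1.1, while glutamine added to glucose gave 0.968. In each of the 8 comparisons the exact two-sided permutation p was 0.1, the smallest that 3 libraries against 3 allow. In bulk RNA a change in the number of cells and a change in RNA per cell cannot be told apart, and a share says nothing of the amount per cell.

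**Figure D1:**
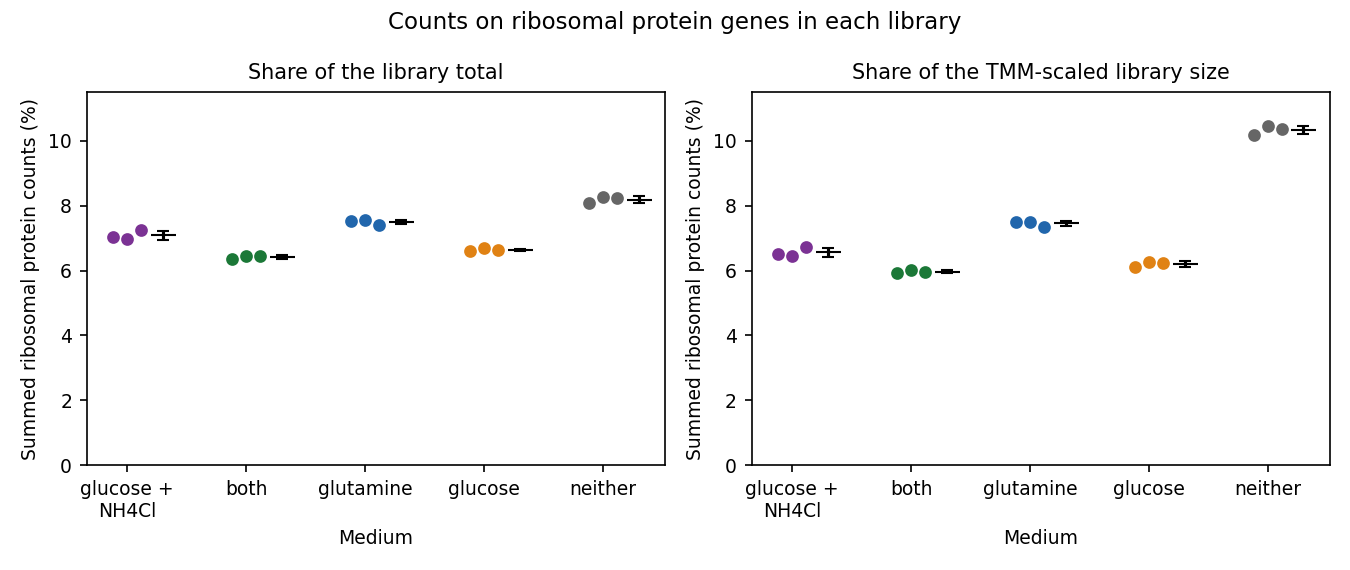
Summed counts of the ribosomal protein genes as a percent of each library's counts and of its TMM-scaled size, 1 point per library and a bar at the mean, by medium. The neither libraries sit highest on both scales (8.19% and 10.3% on average) and the libraries with both nutrients lowest (6.42% and 5.96%).

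The balance between the subunits was nearly the same in every medium. The 60S members held 60.5% of the family's counts with glucose plus NH4Cl, 60.7% with both, 61.1% with glutamine, 60.6% with glucose and 59.6% with neither. Most abundant members ranked the media alike. Of the 72 members averaging at least 100 CPM, 72 were highest in neither and 69 were second highest in glutamine, by mean TMM-scaled level. This order depends on the scaling: with library totals RPL3, RPL10, RPL12 and RPL10A were called higher with glutamine than with neither. The lowest level fell in both for 55 and in glucose for 17, and 54 shared the full descending order of neither, glutamine, glucose plus NH4Cl, glucose and both. The order is of means alone. Between glucose and both, 35 of the 78 members tested were not called and 9 were called higher with both. RPL10A averaged 991 CPM with neither and 984 with glutamine, a difference not called. The share of all genes with this order was not counted.

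Per kilobase of exon the most abundant members averaged over the media were RPS12 (1981 CPM per kb), RPL8 (1282), RPL41 (1170), RPL7 (1127) and RPS18 (972). RPS12 and RPS18 are small-subunit proteins, RPL8 lies near the peptidyl transferase centre, and RPL41 is the smallest ribosomal protein. Among the lowest of those tested were RPS10 (0.635), RPL36A (0.715), RPL17 (11.1) and RPS19BP1 (16). The order depended on the length used: on the level per kilobase of coding sequence RPL41 came first with 16979, and the members' ranks on that and on the exon scale had a Spearman correlation of 0.72 over 78 members, given as a description.

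Relative to other messengers, and on the TMM scale, nearly every member stood higher with neither nutrient than with glucose, glutamine or both. With both nutrients 76 of 78 members fell and 1 rose (all genes tested: 35.3% lower, 37% higher), and the members' median log2 change was -0.80. With glucose alone 76 fell and 1 rose (37.9% of all genes lower, 39.9% higher), with a median of -0.76. With glutamine alone 75 fell and 2 rose (35.8% lower, 37% higher), with a median of -0.50. Calls here and below are those of edgeR's quasi-likelihood test with p-values adjusted by Benjamini-Hochberg over the 16889 genes tested and a threshold of 0.05, and the 3 comparisons share the neither libraries.

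RPLP0, whose protein anchors the P stalk that recruits elongation factors, shows the direction of these falls. It fell by less than the members' median in each of these comparisons. It had 2153, 2124 and 2051 CPM with both, 2750, 2713 and 2652 with glutamine, 2389, 2409 and 2421 with glucose, and 3333, 3433 and 3426 with neither. No library with a nutrient reached those of neither. The log2 change against neither was -0.69 ± 0.0152 with both, -0.33 ± 0.0152 with glutamine and -0.50 ± 0.0152 with glucose (SE). RPS16 and RPS19, small-subunit proteins, were among the members that fell most with both (-0.96 ± 0.033 and -0.96 ± 0.0263). RPS26, RPL38 and RPL27 were among those that fell most with glucose alone (-1.08 ± 0.0259, -1.02 ± 0.0225 and -0.99 ± 0.0215), and RPS26, RPL38 and RPS15 with glutamine alone (-0.88 ± 0.0256, -0.79 ± 0.0222 and -0.76 ± 0.0196). The members that fell least included RPL15, with -0.58 ± 0.0185 with both and -0.49 ± 0.0184 with glucose, and RPL12 and RPL10 with glutamine (-0.18 ± 0.0173 and -0.21 ± 0.0172).

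The size of these falls depended on the scaling. With library totals in place of TMM the median of all genes moved up by 0.44 for both and for glucose and by 0.34 for glutamine, and the members' medians were -0.36, -0.32 and -0.16. Calls were then 76 lower and 2 higher with both (14.2% and 64.3% of all genes on that scale), 75 and 2 with glucose (20.9% and 60.1%), and 65 and 6 with glutamine (19.6% and 56.4%), where the 6 were RPL3, RPL10, RPL12, RPL10A, RPS10 and RPL36A, and RPL4 and RPLP0 stood at 0.03 and 0.02, not called. Short messengers of other genes moved the same way: 179 other genes of at least 100 CPM whose longest coding transcript is under 1500 bases had median log2 changes of -0.61 with both, -0.65 with glutamine and -0.85 with glucose, and their part in the members' falls was not tested. Over 2122 other genes of that level the Spearman correlation of the change with transcript length was 0.53, 0.46 and 0.51 in the same order. Over the 72 abundant members it was 0.24, 0.12 and 0.07, and with coding length in its place 0.22, 0.45 and 0.33.

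**Figure D2:**
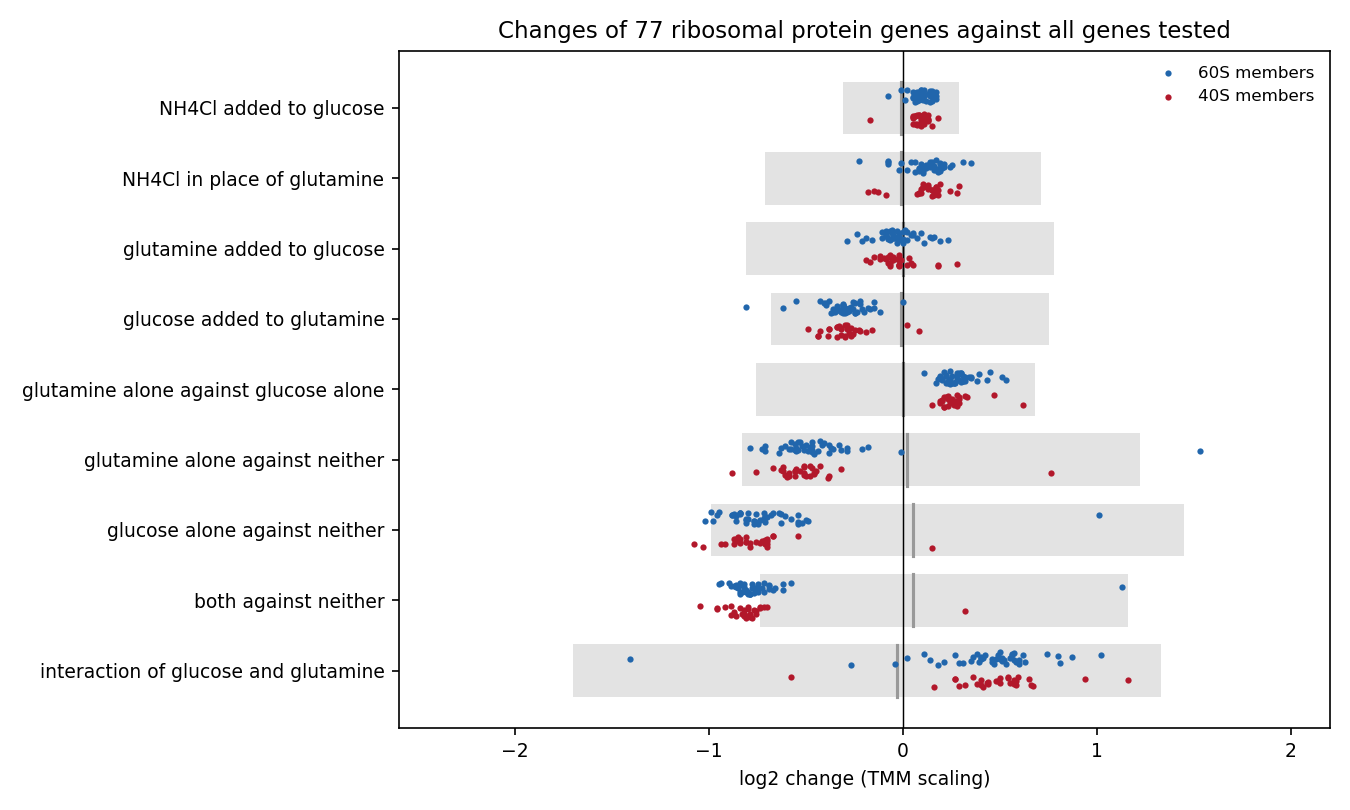
Log2 change of each of the 77 subunit genes that passed the filter (points, 60S and 40S apart) in the 9 comparisons. The grey bar spans the 10th to 90th percentile of all 16889 genes tested and the grey line is their median. Points lie mostly below the line in the comparisons against neither and when glucose is added to glutamine, and above it when glutamine is set against glucose.

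With glucose added to glutamine almost the whole family fell. Of 78 members 73 fell and 2 rose (all genes: 33% lower, 32.6% higher), and the median log2 change was -0.30. The fall was uneven, led by RPL10A, RPL12 and RPL10. RPL10A encodes uL1, which forms the mobile L1 stalk beside the exit site. RPL12 encodes uL11 at the base of the P stalk, and RPL10 encodes uL16, which is added late in 60S maturation. RPL10A had 562, 563 and 556 CPM with both, against 989, 989 and 973 with glutamine. The media were far apart, with a log2 change of -0.81 ± 0.0187 (adjusted p = 1.72e-96, edgeR's quasi-likelihood test). RPL12 had 860, 906 and 911 CPM with both, against 1381, 1369 and 1355 with glutamine, a change of -0.62 ± 0.0174. RPL10 had 879, 868 and 879 CPM with both, against 1311, 1298 and 1249 with glutamine, a change of -0.55 ± 0.0173. With the summed ribosomal protein counts as library size the changes of these 3 were -0.49, -0.30 and -0.23, and each was called lower. These 3 were picked as the largest falls, so values below 0 on that scale follow from the choice and are no added support.

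At the other end RPL27 moved by -0.12 ± 0.0215 and RPL17 by -0.15 ± 0.0598, and neither call held with library totals. RPS26, which lines the mRNA exit channel of the small subunit, rose by 0.08 ± 0.026, with 255, 258 and 245 CPM with both against 239, 247 and 229 with glutamine. Without replicate 3 of glutamine RPS26 stood at 0.05 and was not called (adjusted p = 0.0979, edgeR's quasi-likelihood test), nor was it with no low-count filter (0.06, adjusted p = 0.18). RPL17 lost its call without replicate 2 of glutamine and without replicate 2 or 3 of both (-0.11, -0.14 and -0.14). RPS19BP1, no subunit, rose by 0.17 ± 0.0452. With library totals 68 members were lower and 4 higher (25.8% and 40% of all genes), at a median of -0.20, with the median of all genes moved by 0.10. RPL10 shares 34.2% of its exon bases with DNASE1L1 on the opposite strand, and no source used here says whether the counting used strand.

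With glutamine added to glucose the members split. Of 78 members 34 fell and 9 rose (all genes: 33.7% lower, 34.2% higher), with a median of -0.03. Without the low-count filter 20 were lower and 8 higher, and RPLP1 and RPS4X were among the members no longer called. The members that fell most were RPS19BP1 (-0.40 ± 0.0421), RPL10A (-0.29 ± 0.0188), RPL10 (-0.24 ± 0.0174) and RPL4 (-0.21 ± 0.0155), whose protein reaches into the exit tunnel. The 9 that rose were RPS26 (0.28 ± 0.0264, adjusted p = 1.09e-17, edgeR's quasi-likelihood test), RPL38 (0.23 ± 0.0227), RPL23A (0.19 ± 0.0263), RPS15 (0.18 ± 0.0198), RPL27, RPL17, RPL6, RPL35 and RPL31. RPL17 was not called without replicate 2 of glucose (0.10) or replicate 1 of both (0.13), with no low-count filter (adjusted p = 0.0612, edgeR) or by DESeq2 (adjusted p = 0.0939). RPL38 is known in mice for its effect on the translation of Hox messengers. It had 377, 401 and 404 CPM with both, against 331, 331 and 344 with glucose, and the media did not overlap. RPL38 shares 17.7% of its exon bases with the antisense gene MGC16275.

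Set directly against each other, glutamine gave higher levels than glucose for the tested subunit genes. Of 78 members 77 rose and 1, RPS19BP1, fell (all genes: 33.5% higher, 33% lower), with a median of 0.26. All 46 tested 60S and all 31 tested 40S genes were among the 77. RPS10 was not called by DESeq2 (adjusted p = 0.0515) or, in edgeR, without replicate 2 of glutamine (adjusted p = 0.0741), and RPL15 stood at 0.01 with library totals (adjusted p = 0.491, edgeR). RPL10A had 989, 989 and 973 CPM with glutamine, against 665, 694 and 690 with glucose, a log2 change of 0.53 ± 0.0185. The smallest rises among the called were RPL15 (0.11 ± 0.0184), RPS15 (0.15 ± 0.0199) and RPLP0 (0.17 ± 0.0152). RPS19BP1 fell by 0.58 ± 0.0431 on the log2 scale, to 43.2 ± 1.26 CPM with glutamine, against 64.3 ± 1.28 CPM with glucose (SD, n = 3 each). With library totals 76 members were higher and 1 lower (27% and 39.5% of all genes), at a median of 0.16.

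With NH4Cl added to glucose most of the family rose by a small amount. Of 78 members 63 rose (12.7% of all genes) and none fell in edgeR's quasi-likelihood test (16.9% of all genes), with a median log2 change of 0.09. At an unadjusted p under 0.05 the counts were 67 and 0, and DESeq2 called 64 higher and 0 lower. The changes were narrow: over the 72 abundant members their SD was 0.04, against 0.24 over 2231 genes of at least 100 CPM. RPS29 (0.18 ± 0.0315), RPL24 (0.17 ± 0.0206), RPL31 (0.17 ± 0.0203) and RPL39 (0.16 ± 0.0247) rose most, and RPL3, RPS2 and RPL15, each near 0.05, were among the least of those called. Each of these 3 lost its call with at least 1 library left out, RPS2 without replicate 1 of glucose (0.04), RPL3 without replicate 3 of NH4Cl (0.03) and RPL15 without replicate 1 of glucose (0.04) and 3 other libraries in turn. RPL24, which bridges the subunits, averaged 527 ± 14.1 CPM with NH4Cl and 470 ± 5.6 CPM without it (SD, n = 3 each). Across the 72 members the change had a Spearman correlation of -0.59 with coding length, as a description. With the length of the longest coding transcript in its place the correlation was -0.09. The 179 other short-transcript genes had a median of 0.08, and their part in the rise was not tested.

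With NH4Cl in place of glutamine, in cells given glucose, 64 members rose and 6 fell (all genes: 31.2% higher, 33.4% lower), with a median of 0.14. RPL10A (0.35 ± 0.0188, adjusted p = 4.74e-42, edgeR's quasi-likelihood test), RPS19BP1 (0.34 ± 0.0428), RPL10 (0.31 ± 0.0174) and RPS27 (0.29 ± 0.0233) rose most. RPL10A had 706, 706 and 724 CPM with NH4Cl, against 562, 563 and 556 with both nutrients. The 6 that fell were RPL17 (-0.23 ± 0.0637), RPS26 (-0.18 ± 0.0263), RPS15 (-0.09 ± 0.0198), RPL6 (-0.08 ± 0.0168), RPL38 (-0.08 ± 0.0226) and RPL23A (-0.08 ± 0.0263). RPS26 had 226, 217 and 227 CPM with NH4Cl, against 255, 258 and 245 with both. DESeq2 did not call RPL38 and RPL23A (adjusted p = 0.0543 and 0.0759), nor did edgeR call RPL23A without replicate 2 of both (-0.06). With no low-count filter 2 of the falls passed, and RPL6, RPS15, RPL38 and RPL23A did not (adjusted p = 0.0557, 0.0546, 0.152 and 0.155, edgeR's quasi-likelihood test). The 179 other short-transcript genes had a median of -0.21 in this comparison, opposite in sign to the members'.

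The changes with each nutrient alone did not add up to the change with both. The interaction contrast takes the change with both nutrients against neither and subtracts the changes with glucose alone and with glutamine alone. It was higher than 0 for 73 members and lower for 2 (all genes: 36.8% higher, 38% lower), with a median of 0.48. RPS26 had the highest value, 1.16 ± 0.0367 (adjusted p = 2.07e-57, edgeR's quasi-likelihood test). Its CPM were 255, 258 and 245 with both, 239, 247 and 229 with glutamine, 198, 215 and 213 with glucose, and 443, 447 and 431 with neither. The levels with either nutrient alone lay far below those with neither, and the mean with both was no lower than with either alone. RPL38 followed with 1.02 ± 0.0317, at 377, 401 and 404 CPM with both, 393, 396 and 390 with glutamine, 331, 331 and 344 with glucose, and 661, 680 and 699 with neither. RPS15, a protein of the head of the small subunit, had 0.94 ± 0.0279. RPL27, a large-subunit protein, had 0.87 ± 0.0304.

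The exceptions were RPL10A and RPL36A. RPL10A had an interaction of -0.27 ± 0.0263 (adjusted p = 9.46e-20, edgeR's quasi-likelihood test): its libraries with glutamine, at 989, 989 and 973 CPM, overlapped those with neither, at 986, 1005 and 983, and glutamine against neither did not pass the test (log2 change -0.01, adjusted p = 0.594, edgeR's quasi-likelihood test). With library totals that change was 0.33 and called higher. RPL36A had -1.41 ± 0.285 on 12 to 76 counts per library. The lowest positive values called were RPL4 (0.11 ± 0.0219) and RPLP0 (0.14 ± 0.0215). With library totals the median of all genes moved by -0.34, the members' median was 0.15, 54 were higher and 13 lower (25.6% and 50.3% of all genes), and RPL12, RPL4, RPLP0 and RPS2 had values below 0. The 179 other short-transcript genes had a median interaction of 0.86, and their part in the members' values was not tested.

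**Figure D3:**
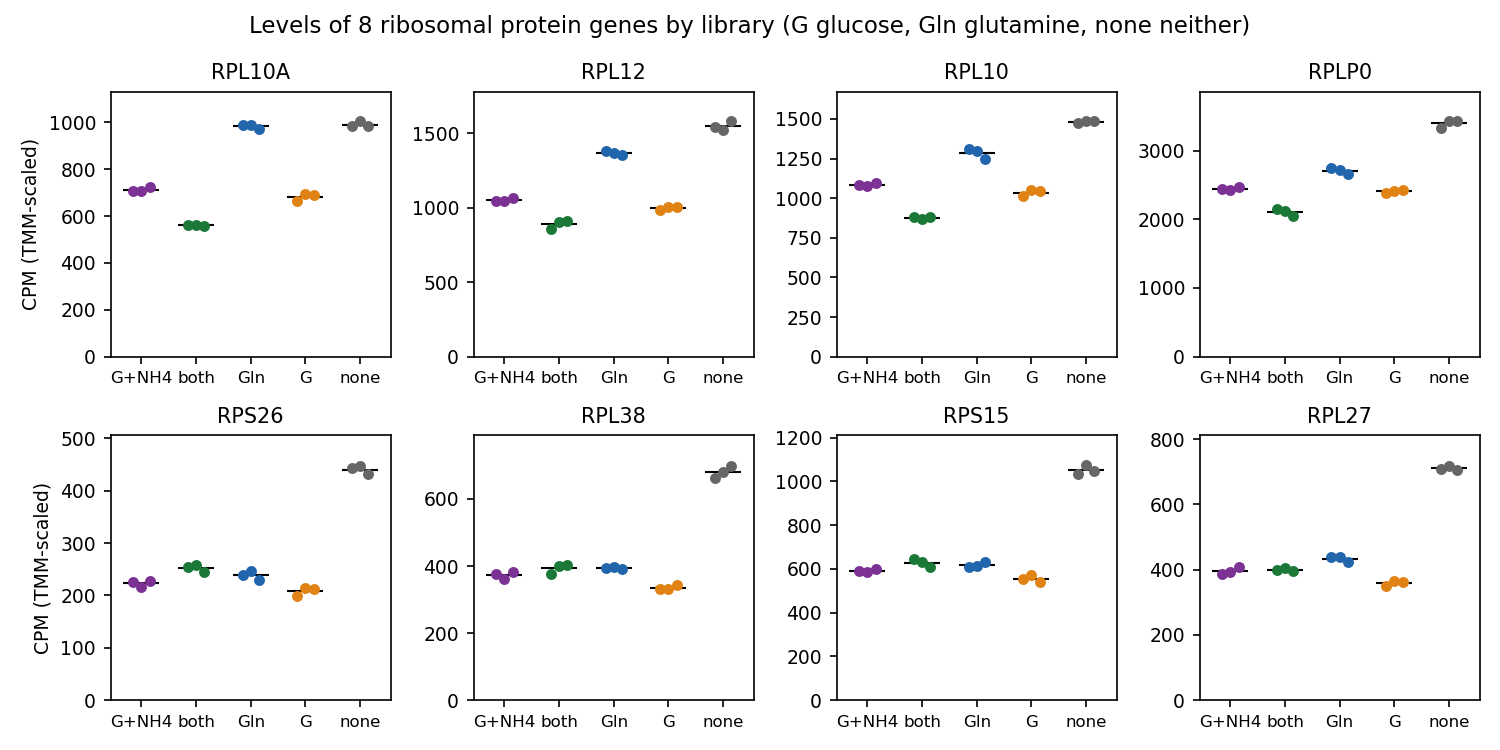
CPM of RPL10A, RPL12, RPL10, RPLP0, RPS26, RPL38, RPS15 and RPL27 in each of the 15 libraries, by medium, with a bar at the mean of 3. Every gene shown has its highest mean with neither. RPL10A, RPL12 and RPL10 are low with both and high with glutamine, whereas RPS26, RPL38 and RPS15 lie closer together in the other 4 media.

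Members' changes were spread less widely than those of all genes of at least 100 CPM, members included, with no matching on level. Over the 72 abundant members the SD of the log2 change was 0.07 for glutamine against glucose and 0.08 for both against neither, against 0.52 and 0.75 over those 2231 genes. The widest spread, 0.22 against 1.11, was in the interaction. Scaling to the family's own sum, which is free of the TMM factors, removes the members' common change by construction. Changes on either side of 0 follow from that scaling, and members were called in each direction in every comparison. With glucose added to glutamine 30 were higher and 14 lower (56.8% and 13.3% of all genes on that scale), and with glutamine added to glucose 21 and 14 (37.4% and 29.6%). Glutamine against glucose gave 14 and 18 (16.5% and 52.4%). With NH4Cl added the counts were 11 and 5 (5.78% and 28.7%), and with NH4Cl in place of glutamine 14 and 19 (21.7% and 43.5%), so fewer members were called than on the TMM scale. Against neither they were 20 and 22 with both (82.8% and 4.35%), 20 and 35 with glutamine (63.3% and 14.5%) and 21 and 36 with glucose (73.4% and 11.3%). The interaction gave 38 and 19 (23% and 53.1%).

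Outside the comparisons with neither, fewer members passed a test against a 1.2-fold change than against no change. With glucose added to glutamine 39 were lower and 0 higher in edgeR (18.8% and 19.6% of all genes), where unadjusted p under 0.05 gave 44 and 0. Glutamine against glucose gave 19 higher and 1 lower (19.6% and 20%; 26 and 1 unadjusted), and NH4Cl in place of glutamine 3 higher and 0 lower (18% and 20%), with 4 and 0 unadjusted. With glutamine added to glucose 0 were higher and 1 lower (22.6% and 21.3%), with 0 and 2 unadjusted. With NH4Cl added to glucose 0 passed in either direction (1.35% higher and 1.28% lower), adjusted or not. DESeq2 was run without a minimum fold only. The interaction gave 63 higher and 1 lower (30.7% and 32.5%).

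As a share of the family's counts, RPL10A had 1.08% with glucose plus NH4Cl, 0.94% with both, 1.32% with glutamine, 1.1% with glucose and 0.96% with neither. RPS26 had 0.34%, 0.424%, 0.32%, 0.337% and 0.426% in the same media. RPL10A was thus high with glutamine alone and low with both and with neither, and RPS26 the reverse. RPS15 and RPL38 had their highest share with both and their lowest with glutamine, at 1.05% against 0.83% and 0.66% against 0.527%. These members were named for extreme interaction values, which set both and neither against each nutrient alone. Shares of this shape follow from that choice and are no added support. Over the 78 members tested, the highest medium's mean share exceeded the lowest's by 1.02 to 3.98 times, with RPL36A at the top on few counts.

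**Figure D4:**
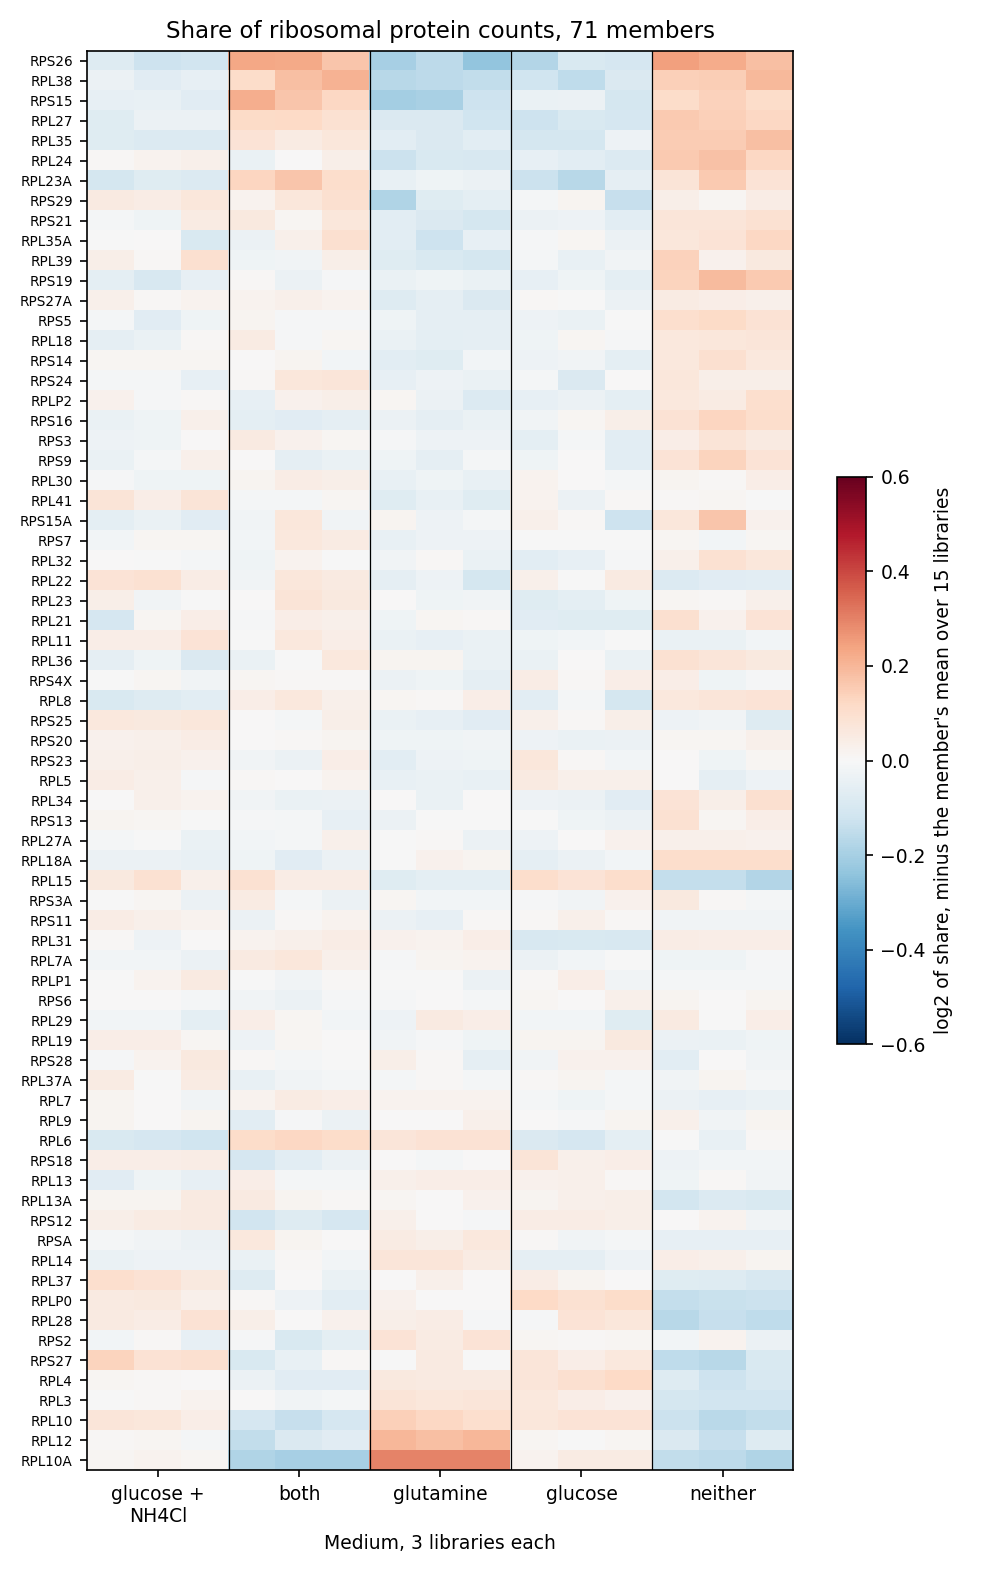
Heat map of 71 of the 72 members of at least 100 CPM by medium, coloured by the log2 of the member's share of all ribosomal protein counts minus its mean over the media. RPL10A, RPL12 and RPL10 are highest with glutamine, and RPS26, RPS15 and RPL38 with both and with neither. Rows are sorted by the mean with both and neither minus the mean with glutamine, and these genes were picked from their values.

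By role, the P stalk genes moved with the family but by different amounts. RPLP1 and RPLP2 encode the acidic stalk proteins. With glucose added to glutamine RPL12 changed by -0.62 ± 0.0174, RPLP0 by -0.36 ± 0.0152, RPLP1 by -0.31 ± 0.0205 and RPLP2 by -0.28 ± 0.0244. With NH4Cl added to glucose RPLP1 and RPLP2 rose by 0.10 ± 0.0205 and 0.14 ± 0.0247 and RPL12 by 0.08 ± 0.0175, while RPLP0 stood at 0.02 ± 0.0152 and was not called.

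RPL5 and RPL11 form the 5S particle and are known to bind MDM2 when assembly fails. They changed by close amounts for both against neither (-0.75 ± 0.0164 and -0.73 ± 0.0198) and when glucose was added to glutamine (-0.27 ± 0.0164 and -0.25 ± 0.0198). They were less alike elsewhere. With glutamine added to glucose RPL5 was called lower (-0.08) and RPL11 was not called. With NH4Cl added to glucose RPL5 rose by 0.07 and RPL11 by 0.15. Among the exit tunnel genes RPL4 fell by 0.43 ± 0.0155 and RPL39 by 0.24 ± 0.0245 on the log2 scale with glucose added to glutamine. In the mRNA path of the small subunit RPS2 fell by 0.44 ± 0.0165, RPS3 by 0.27 ± 0.0231 and RPS28 by 0.32 ± 0.0312 in that comparison, whereas RPS26 rose.

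RPS6, the substrate of the S6 kinases, averaged 1308 ± 20.7 CPM with glucose plus NH4Cl, 1176 ± 6.03 with both, 1485 ± 23.5 with glutamine, 1249 ± 21.2 with glucose and 2079 ± 23 with neither (SD, n = 3 each). It followed the order that most members shared. RPS27A, made as a fusion with ubiquitin, averaged 905 ± 22.7, 825 ± 8.69, 962 ± 21.1, 838 ± 13.1 and 1449 ± 15.1 CPM in the same media. RPS4X, the X-linked copy of RPS4, averaged 1462 ± 14.8, 1339 ± 9.36, 1620 ± 32.4, 1409 ± 11.8 and 2308 ± 24.5 CPM.

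A few members are read with less certainty. The 5 that did not pass the filter were RPS4Y1 and RPS4Y2, which never exceeded 3 counts and 1 count, and the read-through genes RPL17-C18orf32, RPL36A-HNRNPH2 and RPS10-NUDT3, with at most 2 each. RPS10 had 12 to 45 counts per library and shares 39.4% of its exon bases with RPS10-NUDT3 on the same strand. Reads at pseudogenes annotated to RPS10 were 1434% of its own, and those annotated to RPL9, RPS2 and RPL26 were 86.4%, 59.8% and 32% of the member's own. RPL17 and RPL36A share 24.8% and 8.4% of their exon bases with other protein-coding genes on the same strand, at 350 to 597 and 12 to 76 counts. RPL36A and RPS10 were the 2 members called higher with glutamine against neither (1.53 ± 0.214 and 0.76 ± 0.258). Over the family, pseudogene counts were 6.22 per 100 member counts with glucose plus NH4Cl, 6.2 with both, 6.42 with glutamine, 6.33 with glucose and 6.18 with neither. No source used here says how reads with several matches were counted.

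Members with the tract at the annotated start and members without it had close median changes. Among tested subunit members with a promoter entry, 42 had it and 20 did not. Their medians were, with it and without it, -0.31 and -0.28 with glucose added to glutamine, 0.10 and 0.08 with NH4Cl added to glucose, -0.82 and -0.76 for both against neither, and 0.48 and 0.46 in the interaction. RPS26, with the highest interaction, and RPL10A, below 0, both lacked it at that start, as the windows above show, whereas RPL36A, with the lowest, had it.

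The paralogues left out by the rule did not keep a fixed ratio to their partners. RPL22L1, which can replace RPL22 in the large subunit, fell with glucose added to glutamine by 1.46 ± 0.0551 on the log2 scale and rose with glutamine against glucose by 1.06 ± 0.0524. Per 100 counts of RPL22 it had 3.88 ± 0.156 with glucose plus NH4Cl, 3.42 ± 0.265 with both, 8.03 ± 0.13 with glutamine, 4.37 ± 0.0528 with glucose and 8.44 ± 0.324 with neither (SD, n = 3 each). The media without glucose stood above the rest. RPS27L, per 100 counts of RPS27, had 10.9 ± 0.248 with both, 5.06 ± 0.103 with glutamine and 7.17 ± 0.122 with glucose. RPL39L, per 100 counts of RPL39, had 12.3 ± 0.459 with both, 6.7 ± 0.337 with glutamine and 12.1 ± 0.455 with glucose. Both rose when glucose was added to glutamine, by 0.72 ± 0.0562 and 0.63 ± 0.0587 on the log2 scale, while RPS27 and RPL39 fell.

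**Figure D5:**
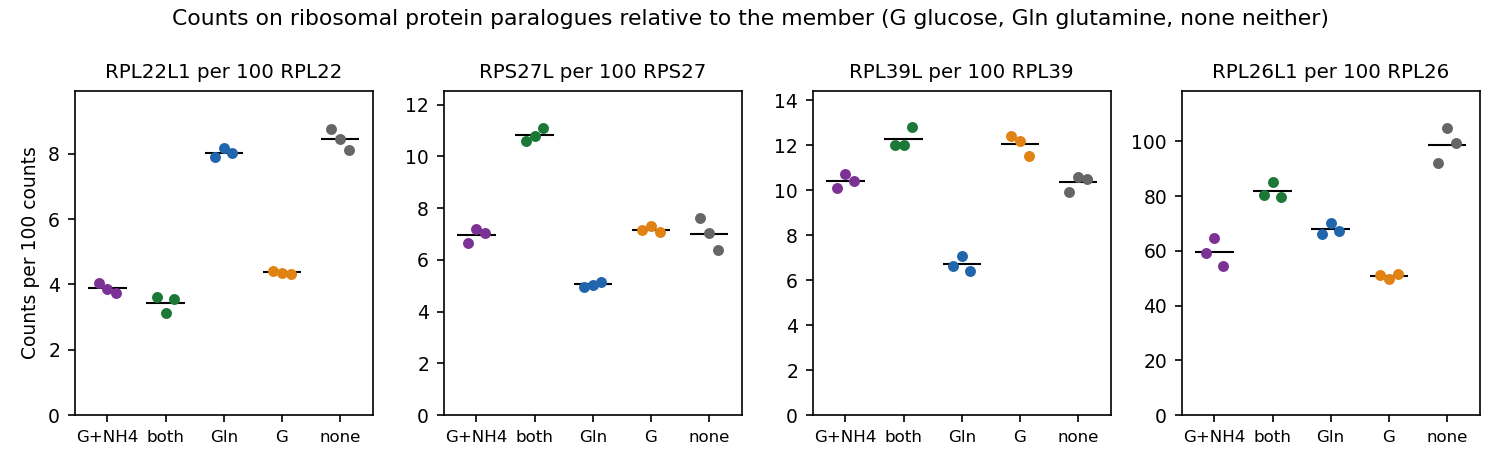
Counts of RPL22L1, RPS27L, RPL39L and RPL26L1 per 100 counts of RPL22, RPS27, RPL39 and RPL26 in each library, by medium. RPL22L1 is highest with glutamine and with neither, RPS27L with both, and RPL39L lowest with glutamine.

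Genes of the ribosome with other names fell and rose in the same comparisons. RACK1 and FAU fell with glucose added to glutamine (-0.41 ± 0.0156 and -0.17 ± 0.0276) and rose with glutamine against glucose (0.20 ± 0.0155 and 0.13 ± 0.0276). Of 16 listed genes with other TOP messengers, 15 were tested, since EEF1G is listed at 0 in every library. All 15 fell with glucose added to glutamine, with a median of -0.42 (33% of all genes lower), among them NPM1 (-0.62 ± 0.0144), EEF2 (-0.63 ± 0.0134) and EEF1A1 (-0.51 ± 0.0109). With NH4Cl added to glucose 8 rose and 1, EEF2, fell (12.7% and 16.9% of all genes). In the interaction 8 of the 15 were higher than 0 and 5 lower (36.8% and 38% of all genes), with a median of 0.09, and with library totals 1 was higher and 11 lower (25.6% and 50.3%). The lower ones included EIF4B, EEF1D, EEF2 and EEF1A1, named here after their values were seen (-0.55 ± 0.0241, -0.58 ± 0.0393, -0.50 ± 0.0189 and -0.24 ± 0.0154).

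Chaperones and importers of ribosomal proteins split when glutamine was added to glucose: 6 of 11 rose and 5 fell. The largest rises were GRWD1 (1.00 ± 0.0513), IPO9 (0.90 ± 0.0355), HEATR3 (0.76 ± 0.0773) and BCCIP (0.69 ± 0.0365), on a background where 34.2% of genes rose and 33.7% fell. Among 13 regulators of TOP messengers and of ribosome quality, MYC averaged 224 CPM with glucose plus NH4Cl, 182 with both, 241 with glutamine, 313 with glucose and 480 with neither. LARP1 averaged 648, 515, 716, 722 and 459 CPM in the same media. With NH4Cl added to glucose 7 of the 13 fell (16.9% of all genes), MYC by 0.48 ± 0.0242 on the log2 scale. EIF4EBP1, which binds the cap-binding protein, fell by 0.96 ± 0.034 with glucose added to glutamine.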

How the data were processed

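Whole-number counts per gene were deposited by the authors for 15 H1299 libraries. Per the labels' protocols, RNA was poly(A)-selected and the kit kept strand. The submitters' processing notes list, without roles, GRCh38.p12, HISAT2 2.1.0, Subread 1.5.1 and featureCounts. No source used here gives the strand option or how reads with several matches were counted. Depth was 14914127 to 19938691 counts per library, and 3 counts, the floor that a count of 0 allows, equal 0.15 to 0.237 CPM, for counting error only. Gene names came from GENCODE 29. No column of another series was present (0 unused columns).

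From the counts, edgeR 4.0.16 (R 4.3.3, limma 3.58.1) was run with TMM scaling, its default low-count filter (16889 genes kept) and 1 robust quasi-likelihood fit of the 5 media with 10 residual degrees of freedom. Contrasts were tested over all kept genes with Benjamini-Hochberg adjustment at 0.05, and standard errors are the log2 change over the root of F. The procedure was tested on simulated data. CPM use TMM-scaled library sizes. Within-family values use the summed ribosomal protein counts as library size. Summed shares were compared by exact permutation tests.

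The members, gene lists and tests were chosen with earlier results of these data known. Members named are the 4 highest and 4 lowest called in each comparison, those opposite to most members, the 5 highest and lowest per exon length, those that did not pass the filter, and the role groups. Up to 4 genes of each further list are given. The genes whose sequences are shown were chosen after their values were seen. No protein sequences were used. Values of a few genes within these rules are not reported here.

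Replicate numbers did not pair the libraries: deviations from the group means had a median correlation of -0.000938 for same-numbered and 0.00513 for other pairs. Replicates were not identical. Alternatives were DESeq2 1.42.0 and its size factors, library totals, the family's own sum, other filters, a replicate block, the compared media alone, each library left out and, added after the data were seen, a 1.2-fold test.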

Additional observations from a re-analysis of the deposited data

Results flagged for a closer look

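By edgeR's interaction contrast on the TMM scale, the change with both nutrients lay above the summed single-nutrient changes for 73 members and below for 2. Of all genes 36.8% were higher and 38% lower. With library totals 54 members were higher and 13 lower (25.6% and 50.3% of all genes), and the members' median was 0.15 in place of 0.48. The members singled out were RPS26 (1.16 on the log2 scale), RPL38 (1.02), RPS15 (0.94) and RPL27 (0.87) above 0, and RPL36A (-1.41) and RPL10A (-0.27) below it. RPL36A rests on 12 to 76 counts per library. Groups of 3 libraries were not searched for single outlying samples.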

How the results depend on the processing

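Brackets after members called higher and lower give the shares of all genes on the same scale. With the family's own sum as library size, NH4Cl added to glucose gave 11 and 5 (5.78% and 28.7%). NH4Cl in place of glutamine gave 14 and 19 (21.7% and 43.5%), and glutamine added to glucose 21 and 14 (37.4% and 29.6%). Glucose added to glutamine gave 30 and 14 (56.8% and 13.3%), and glutamine against glucose 14 and 18 (16.5% and 52.4%). Against neither, counts were 20 and 22 with both (82.8% and 4.35%), 20 and 35 with glutamine (63.3% and 14.5%) and 21 and 36 with glucose (73.4% and 11.3%). The interaction gave 38 and 19 (23% and 53.1%). This scaling removes the family's common change by construction. Against a 1.2-fold change edgeR called 0 and 0 for NH4Cl added (1.35% and 1.28%, unadjusted p under 0.05: 0 and 0). For NH4Cl in place of glutamine it called 3 and 0 (18% and 20%, unadjusted 4 and 0). Counts were 0 and 1 for glutamine added (22.6% and 21.3%, unadjusted 0 and 2) and 0 and 39 for glucose added (19.6% and 18.8%, unadjusted 0 and 44). DESeq2, at no minimum fold, called 64 and 0, 65 and 4, 8 and 35, and 2 and 72. Against a 1.2-fold change edgeR called 19 higher for glutamine against glucose (19.6% of all genes) and 1 lower in the interaction (32.5%). Without the low-count filter 20 members were lower with glutamine added, 1 was higher with glucose added and 2 were lower with NH4Cl in place of glutamine. Shares of all genes are not given here for DESeq2, unadjusted p-values, the unfiltered fit, the replicate block or the fits without a library. Those counts describe only how far the members' calls held.

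With library totals 4 members were higher with glucose added to glutamine (40% of all genes). Against neither 2 were higher with both (64.3%), 2 with glucose (60.1%) and 6 with glutamine (56.4%), and 13 were lower in the interaction (50.3%). RPS19BP1 then turned to 0.07 for glucose against neither. RPL10, RPL12, RPL4 and RPLP0 turned to 0.14, 0.17, 0.03 and 0.02 for glutamine against neither, and RPL12, RPL4, RPLP0 and RPS2 to -0.32, -0.23, -0.20 and -0.07 in the interaction. With TMM-scaled sizes the ratios of the summed share were 0.8 for glucose added to glutamine, 1.2 for glutamine against glucose, and 0.577, 0.721 and 0.599 for both, glutamine and glucose against neither. The cause was not tested.

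Leaving out each library in turn gave 1 to 3 members higher with glucose added to glutamine, 54 to 66 higher with NH4Cl added, 29 to 36 lower with glutamine added and 2 to 3 lower in the interaction. The libraries share only a replicate number, and 4 of 15 correlated best with their own number. A replicate block gave 66 higher and 0 lower with NH4Cl added, 10 and 36 with glutamine added, 2 and 73 with glucose added and 73 and 2 in the interaction. A tally over the named members left out the family's own sum, the 1.2-fold test and the fits without a library. In that tally 1392 values kept direction and call, 22 lost the call, 5 gained it and 9 reversed. RPS28 gained a call under the block with glutamine added (adjusted p = 0.0424, edgeR's quasi-likelihood test).

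With 3 libraries per medium the summed shares cannot pass 0.05 in an exact test. RPS10 and RPL36A rest on few counts, and the strand and multiple-match settings of the counting bear on members with antisense genes or pseudogenes. Sizes of change against neither depend on the scaling.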

Other observations

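Annotated ribosomal protein pseudogenes, most of them processed copies without introns, were counted as separate genes, and 138 passed the low-count filter. With NH4Cl added to glucose 11 were higher and 2 lower (12.7% and 16.9% of all genes), and with NH4Cl in place of glutamine 30 and 7 (31.2% and 33.4%), shares of the 138 below those of all genes. With glutamine added to glucose 9 were higher and 20 lower (34.2% and 33.7%), with glucose added to glutamine 3 and 83 (32.6% and 33%), and with glutamine against glucose 73 and 4 (33.5% and 33%). Against neither nutrient 109 were lower with both, 84 with glutamine and 106 with glucose (35.3%, 35.8% and 37.9% of all genes). Their median log2 changes, -0.39 with glucose added to glutamine and 0.30 with glutamine against glucose, lay beside those of the members, -0.30 and 0.26. Reads at these loci and at the parent genes cannot be told apart here.

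RPL26L1 encodes a near copy of RPL26. Per 100 counts of RPL26 it had 59.4 ± 5.27 with glucose plus NH4Cl, 81.7 ± 2.86 with both, 67.8 ± 2.1 with glutamine, 50.9 ± 0.953 with glucose and 98.8 ± 6.48 with neither (SD, n = 3 each). RPL36AL averaged 137 CPM with glucose plus NH4Cl, 148 with both, 142 with glutamine, 115 with glucose and 193 with neither, far above RPL36A in every medium, where RPL36A averaged 1.38 to 3.95 CPM. RPL10L, a testis paralogue of RPL10, reached at most 1 count.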
